A study of Mus musculus with 20 samples.

Results

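Matrix metalloproteinases (MMPs), ADAMs, ADAMTSs and their tissue inhibitors (TIMPs) were examined in the apex of the heart of mice with and without AL amyloidosis, a disease in which immunoglobulin light chains deposit as fibrils. The members were the rows of the gene table whose symbol was Mmp, Adam, Adamts or Timp followed by a number, with 1 Mmp gene not analysed here. This gave 79 of 25308 genes, of which 22 were Mmp, 34 Adam, 19 Adamts and 4 Timp genes. Bulk RNA sequencing of 20 mice was available, in 3 groups. The 9 AL mice carried the λS-DH alleles (labelled DH-lambdaS), with hearts labelled AL+. The 4 LS mice carried the same alleles, with hearts labelled AL-. The 7 Ctrl mice were DH mice, which make mouse light chains and not the human one. In λS-DH mice the cDNA of a human λ light chain from 1 patient is inserted in the mouse kappa locus, so that B-lineage cells and above all plasma cells produce it and the heart receives it from the blood. All 3 groups share the DH-LMP2A background, which lacks endogenous immunoglobulin heavy chains. In this model amyloid follows an injection of light chain fibrils or of a light chain fragment. The age of each mouse and which injection, if any, it had received are not given in the labels. The authors describe the LS mice as non-induced and the Ctrl mice as age-matched. Injection and amyloid therefore cannot be told apart.

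The extracellular matrix of the heart is turned over by zinc-dependent proteases. MMPs cleave collagens and other matrix proteins, and the membrane-type MMPs also activate other MMPs at the cell surface. ADAMs are mostly membrane-bound sheddases that release cytokines, growth factors and receptors from the cell surface, whereas ADAMTSs are secreted and process procollagens, proteoglycans and other matrix proteins. TIMPs bind the active site of MMPs and, in the case of TIMP3, also that of several ADAMs and ADAMTSs. The balance between proteases and TIMPs is a classic theme of cardiac remodelling, and circulating MMPs and TIMP1 have been studied in patients with AL amyloidosis.

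The site that binds the catalytic zinc is shown first, because it separates proteases from the ADAMs that have lost it. It consists of 3 histidines with a glutamate after the first of them, and a glycine between the second and the third in MMPs and in most ADAMs. The motif was searched for in the translated coding sequence of each member. All 22 Mmp and 19 Adamts members held it, as did 21 of the 34 Adam members, whereas the other 13 Adam members did not. The 33 coding bases of the site are given 5′ to 3′ on the coding strand for 8 members on which the results below turn, with the codons of the 5 conserved residues in capitals. Positions are those of GRCm38, and for Adamts6, Adamts10 and Adamts2 the interval holds an intron that is not printed. In Adam22 and Adam23 the window is the one that aligned with the site of Adam8, with 29.8% and 31.1% identity over 783 and 682 aligned residues.
Mmp23 (chr4:155651528-155651560, minus strand, exon 5 of 8): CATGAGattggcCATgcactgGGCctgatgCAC
Mmp17 (chr5:129596597-129596629, plus strand, exon 5 of 10): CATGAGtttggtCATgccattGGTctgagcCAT
Adam8 (chr7:139987893-139987925, minus strand, exon 11 of 24): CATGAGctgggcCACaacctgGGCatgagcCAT
Adamts6 (chr13:104352847-104366809, plus strand, exons 9 and 10 of 25): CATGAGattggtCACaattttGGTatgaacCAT
Adamts10 (chr17:33538157-33538279, plus strand, exons 9 and 10 of 25): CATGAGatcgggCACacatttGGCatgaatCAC
Adamts2 (chr11:50775403-50776134, plus strand, exons 7 and 8 of 22): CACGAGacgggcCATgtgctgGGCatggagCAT
Adam22 (chr5:8143064-8143096, minus strand, exon 13 of 30): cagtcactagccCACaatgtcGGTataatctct
Adam23 (chr1:63547763-63547795, plus strand, exon 13 of 26): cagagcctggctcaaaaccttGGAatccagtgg
The 6 proteases kept all 5 conserved residues in this window. Adam22 kept 2 and Adam23 kept 1, and both belong to the ADAMs known to act as neuronal adhesion proteins rather than as proteases.

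The libraries held 7867642 to 62668146 estimated counts each. They came from 2 sequencing runs, which the labels call batches. The first run held AL1 to AL7, all LS mice and Ctrl1 to Ctrl4, and the second held AL8, AL9 and Ctrl5 to Ctrl7 at 7867642 to 11794615 counts. Levels are given as CPM, the counts of a library scaled to a common total, after TMM scaling. A count of 3, taken as the detection floor, was worth 0.0479 to 0.381 CPM per library, which covers counting error only. Mouse AL9 stood apart from the other 19. Its 7 fibroblast marker genes summed to 4443 CPM, against 386.2 in AL8 and at most 1478 in the others. Most of that sum came from the collagen genes Col3a1 (2465 CPM), Col1a2 (712.9) and Col1a1 (694.2). The markers Dcn (406.3 CPM), Lum (106.8), Pdgfra (52.15) and Tcf21 (5.77) lay within the range of the other 19 mice. AL9 also had the lowest share of mitochondrial counts (18.3%, against up to 37.1%). Results on the members named here that AL9 moved are therefore given with and without it. The 6 cardiomyocyte marker genes summed to 39720 CPM or more in every mouse, so that each library held the heart muscle its label gives. A set of 8 liver genes was seen at 2.26 to 300.1 CPM in Ctrl, 7.51 to 181.3 CPM in LS and 2.08 to 38.0 CPM in AL mice, and all 8 passed the test as lower in AL than in Ctrl. Its part in the results on proteases was not tested beyond a fit that takes the liver genes as a covariate.

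Of the 79 members, 15 were listed at 0 in every mouse, namely 12 Adam, 2 Mmp and 1 Adamts genes, most of the Adams being known from testis. Another 15 had 1 to 70 counts in all 20 mice together and did not pass the filter on low counts. The remaining 49 were tested, made up of 14 Adam, 16 Adamts, 15 Mmp and all 4 Timp genes. The filter asked for a CPM worth 10 counts in a library of median size, in as many mice as the smallest group holds. Fewer counts were enough in the shallower libraries of the second run. Mice of any group counted, so a gene could pass through 1 group alone or through several groups together. On chromosome 9, where 9 Mmp members lie side by side between 7272514 and 7699585, 4 passed.

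Per kilobase of transcript, the inhibitors Timp3 and Timp2 were the most abundant of the members, while Timp4 and Timp1 lay among the leading proteases. Averaged over the 20 mice, Timp3, which is bound to the matrix, stood at 51.3 CPM per kb and made up 55.7% of the summed Timp level. Timp2 followed at 26.1 CPM per kb, Timp4, which is typical of heart, at 9.58 and Timp1 at 5.16. The Mmp family was led by Mmp2 (gelatinase A) at 14.6 CPM per kb, Mmp15 (a membrane-type MMP) at 11.1 and Mmp3 (stromelysin-1) at 4.81, which together made up 75.7% of its sum. Adam9 at 14.7 CPM per kb, Adam10, the sheddase of Notch and many other receptors, at 9.65 and Adam15 at 7.501 gave 68.4% of the Adam sum. Adamts1 at 8.29 CPM per kb, Adamts2 at 2.36 and Adamts10 at 2.33 gave 58.2% of the Adamts sum. The place of Adamts2 rested on AL9, since without that mouse its mean was 1.937 CPM per kb, behind Adamts10, Adamts5 and Adamts7. A handful of genes therefore carried each family in the heart apex.

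AL mice were compared with Ctrl mice to ask which proteases and inhibitors differ in hearts with amyloid. A gene was called when its FDR from edgeR's quasi-likelihood test, adjusted over all 14477 genes tested, was under 0.05 and its log2 fold change was at least 0.58 in size. In AL mice 7 of the 49 tested members were called higher and none lower. Over all genes, 4.1% were called higher and 3.71% lower. The 7 were Timp1, Mmp17, Mmp23, Adam23, Adamts2, Adamts6 and Adamts20. At any fold 10 had an FDR under 0.05, as had 26.2% of all genes, and 17 had an unadjusted p under 0.05, as had 38.9% of all genes. Counted over both directions, the shares of the members did not exceed these. All 10 members at that FDR were higher, where 1556 of the 14477 genes were higher and 2236 lower. The median log2 fold change of the 49 was 0.24, against 0.01 over all genes tested. In the first run alone the median of the 47 members tested there was 0.03, with 5 called higher, where 3.81% of all genes were, and 3 called lower, where 4% were. Without AL9 the fit of both runs called 5 members, 3 higher and 2 lower, and 972 of 14413 genes. Without Ctrl2 or Ctrl6 it called 4 members, beside 1122 and 1063 genes. The plot of the fold changes shows the spread of each member in the 3 comparisons.

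**Figure D1:**
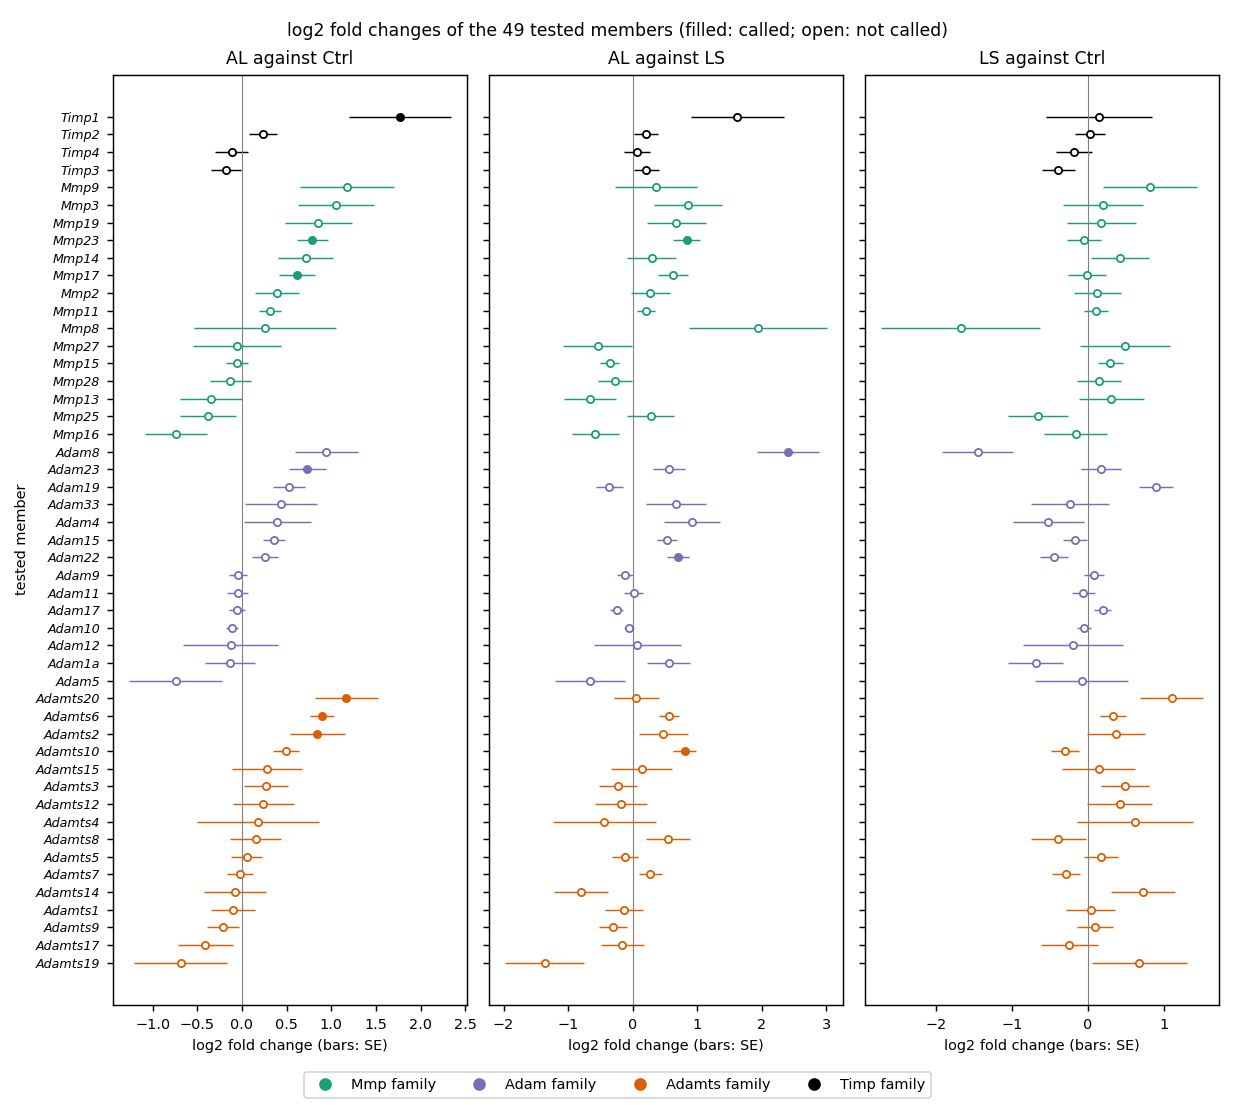
log2 fold change with its SE (x axis) of each of the 49 tested members (y axis), by family, in AL against Ctrl (left), AL against LS (middle) and LS against Ctrl (right), from the fit of all 20 mice with a term for the sequencing run. Filled points passed the test: 7 in the first panel, 4 in the second and none in the third.

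Among the inhibitors, only Timp1, the inducible TIMP that rises in many injured tissues, was called. In the AL mice it stood at 0.830 CPM at the lowest, 4.003 at the median and 33.3 at the highest. The LS mice had 1.49, 2.08, 2.49 and 1.98 CPM, and the Ctrl mice ranged from 0.394 over a median of 1.22 to 4.80 CPM. The highest value belonged to AL9 and the lowest of the AL mice to AL8, both of the second run, and the groups overlapped. The log2 fold change was 1.77 ± 0.57 (SE; FDR = 0.029, edgeR). Without AL9 it was 0.82 (FDR = 0.191), and in the first run alone, where the 7 AL mice had 2.76 to 8.92 CPM and the 4 Ctrl mice 1.22 to 4.80 CPM, it was 1.05 (FDR = 0.0807). The call was also lost without Ctrl2 (1.69, FDR = 0.0538), Ctrl3 (1.68, 0.0566), Ctrl5 (1.55, 0.0527), Ctrl6 (1.74, 0.052) or Ctrl7 (1.60, 0.0561), with Xist as a covariate (1.56, 0.0609) and with a replicate block (0.96, 0.183). In bulk tissue a change in the number of cells that express a gene and a change in RNA per cell cannot be told apart.

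The 3 other TIMPs gave no call. Timp3 stood at 198 to 633 CPM in AL mice with a median of 470, at 500, 317, 267 and 508 CPM in LS mice and at 305 to 617 CPM in Ctrl mice with a median of 381. Its log2 fold change was -0.18 (FDR = 0.453), and the 3 groups overlapped widely. For Timp2, an inhibitor that also helps Mmp14 to activate pro-MMP2, it was 0.24 (FDR = 0.268), with 49.4 to 152 CPM in AL, 94.7 to 111 CPM in LS and 74.4 to 114 CPM in Ctrl mice. For Timp4 it was -0.11 (FDR = 0.684). The AL range of Timp4 was 28.8 to 77.6 CPM and held the whole Ctrl range of 45.9 to 72.0 CPM.

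In the MMPs, 2 of 15 tested members were called higher in AL than in Ctrl mice and none lower, with a median log2 fold change of 0.31 (0.13 in the first run alone). Mmp23, a short membrane-anchored MMP without the usual hemopexin domain, ranged from 4.50 over a median of 6.48 to 9.47 CPM in AL mice. It was at 4.63, 3.39, 3.08 and 3.27 CPM in LS mice and ranged from 2.39 over 3.74 to 4.96 CPM in Ctrl mice. In the first run all 7 AL mice, at 5.01 to 6.89 CPM, stood above all 4 Ctrl mice, at 2.40 to 4.96 CPM. Across both runs only 1 AL mouse, AL8, fell within the range of the Ctrl mice. On the log2 scale AL mice were higher by 0.79 ± 0.18 (SE; FDR = 0.00351), and without AL9 it was 0.62 (FDR = 0.00851).

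Mmp17 (MT4-MMP), a membrane-type MMP held by a lipid anchor, ranged from 1.19 over 2.03 to 3.36 CPM in AL mice. The LS mice had 1.51, 0.946, 1.41 and 1.52 CPM, and the Ctrl mice 0.936 to 1.87 CPM with a median of 1.46. Of the AL mice 7 of 9 were above the highest Ctrl mouse, and AL3 and AL8 lay within the range of the Ctrl mice. The log2 fold change of 0.61 ± 0.20 (FDR = 0.0307) lay close to both limits of the call. It was lost without AL1 (0.57, FDR = 0.0515), AL9 (0.46, 0.0959), Ctrl3 (0.57, 0.0671), Ctrl4 (0.52, 0.082) or Ctrl6 (0.57, 0.0501), and with ComBat-seq (0.58, 0.14), a replicate block (0.61, 0.0868), Xist (0.58, 0.0592) or the liver genes (0.76, 0.0605) as a covariate.

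The MMPs best known in heart were not called in the main fit. Mmp2 ranged from 23.7 over 49.5 to 123 CPM in AL mice, against 28.2 over 40.0 to 60.2 CPM in Ctrl mice, with a log2 fold change of 0.40 (FDR = 0.246). Mmp9 (gelatinase B, typical of neutrophils and macrophages) had the highest log2 fold change of its family at 1.18 (FDR = 0.104), and Mmp14 (MT1-MMP), which activates pro-MMP2, had 0.72 (FDR = 0.0916). For Mmp3 the value was 1.05 (FDR = 0.073), and for Mmp15 -0.06 (FDR = 0.767). The highest values of Mmp2, Mmp3, Mmp9 and Mmp14 all belonged to AL9, at 123, 48.02, 18.4 and 49.7 CPM. Without AL9 the log2 fold changes were -0.02 for Mmp2, 0.41 for Mmp3, 0.45 for Mmp9 and 0.16 for Mmp14, and Mmp9 was below Mmp23, at 0.62. Some alternative fits did call them higher. Mmp9 was called with DESeq2 (1.24, FDR = 0.0438). Mmp14 was called with DESeq2 (0.76, 0.0462), with the liver genes as a covariate (1.37, 0.016) and without AL8 (0.81, 0.0444). Mmp3 was called with the liver genes as a covariate (1.77, 0.0249) and without AL3, AL8 or Ctrl4. Mmp2 and Mmp15 were called in no alternative. At the other end stood Mmp16 (MT3-MMP) at -0.74 (FDR = 0.123), with at most 1.05 CPM in any mouse and 0 in AL9. By subfamily, the main fit called none of the 2 tested gelatinases, the 2 collagenases and the 2 stromelysins. It called 1 of 5 membrane-type MMPs (Mmp17) and 1 of the 4 remaining MMPs (Mmp23).

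In the ADAMs, 1 of 14 tested members was called higher and none lower, and the median log2 fold change was 0.11 (0.25 in the first run). The called member was Adam23, which lacks the zinc site and is known as an adhesion protein and a receptor of LGI proteins. It ranged from 1.64 over 2.97 to 7.57 CPM in AL mice, was at 2.20, 1.22, 2.59 and 1.87 CPM in LS mice and ranged from 1.47 over 2.49 to 2.84 CPM in Ctrl mice. Of the AL mice 5 of 9 were above the highest Ctrl mouse, AL9 by far, and the other 4 lay within the range of the Ctrl mice. On the log2 scale the difference was 0.73 ± 0.21 (FDR = 0.0151), and without AL9 it was 0.56 (FDR = 0.0481), under the fold limit. The call was also lost in the first run alone (FDR = 0.0981), with ComBat-seq (0.67, 0.0821), without a run term (0.63, 0.108) and with a replicate block (0.74, 0.0879).

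The abundant sheddases were close to equal. For Adam9 the log2 fold change was -0.04, for Adam10 -0.11 (FDR = 0.259) and for Adam17, which releases TNF, -0.05 (FDR = 0.683). The mean level of Adam10 was 47.03 CPM with an SD of 4.95 in the 7 Ctrl mice, 46.3 with an SD of 7.97 in the 9 AL mice and 50.5 with an SD of 2.93 in the 4 LS mice. For Adam17 the means were 40.9 (SD 7.08), 41.96 (SD 7.25) and 52.8 CPM (SD 6.91) in the same order. Adam15, found on endothelium and other cells, passed the FDR limit with a small log2 fold change of 0.36 (FDR = 0.0412), which was 0.22 without AL9 (FDR = 0.129) and 0.26 in the first run alone (FDR = 0.114). Adam19, named after its values were seen, passed it with 0.53 (FDR = 0.0348), and had 0.32 in the first run alone (FDR = 0.266). The lowest value was that of Adam5 at -0.74 (FDR = 0.308), a gene known from testis with at most 0.324 CPM in any mouse. Of the 9 tested ADAMs with the zinc site none was called in AL against Ctrl (median -0.04), and of the 5 without it Adam23 was (median 0.26).

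In the ADAMTSs, 3 of 16 tested members were called higher and none lower, with a median log2 fold change of 0.17, which was -0.17 in the first run alone. Adamts6, related to Adamts10 and known for its action on fibrillin and other matrix proteins, gave the lowest FDR of all members. It ranged from 3.39 over 5.11 to 7.11 CPM in AL mice, was at 2.84, 3.43, 3.52 and 2.85 CPM in LS mice and ranged from 2.18 over 2.67 to 5.12 CPM in Ctrl mice. In the first run the AL mice, at 3.39 to 6.24 CPM, did not overlap with the Ctrl mice, at 2.18 to 2.67 CPM, while the LS mice lay between them and touched the AL range. Of the 49 members only Adamts6 and Mmp23 were higher without overlap in the first run, a pattern shown by 5.68% of all genes. For Adamts6 the log2 fold change was 0.90 ± 0.13 (SE; FDR = 0.000242), 0.94 without AL9 (FDR = 0.000448), 0.97 in the first run alone (FDR = 0.00176) and 0.78 in the second.

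Adamts20, a proteoglycanase studied mostly in development and pigmentation, was found at very low levels, with 185 counts in all mice together. It stood at 0.152 to 0.443 CPM in AL mice with a median of 0.237, at 0.213, 0.316, 0.183 and 0.347 CPM in LS mice and at 0.0761 to 0.197 CPM in Ctrl mice with a median of 0.104. The AL mice reached further up than the Ctrl mice, and the LS mice were at the level of the AL mice. Its fitted log2 fold change was 1.17 ± 0.35 (FDR = 0.0211). The call was lost without Ctrl2 (1.03, FDR = 0.0592) or Ctrl3 (1.098, 0.0525), with ComBat-seq (1.09, 0.109), with a replicate block (1.11, 0.0771) and with the liver genes as a covariate (0.61, 0.398).

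Adamts2, which removes the amino-terminal propeptide of fibrillar procollagens, was called by the narrowest margin, with a log2 fold change of 0.84 ± 0.31 (FDR = 0.0476). It ranged from 12.7 over 20.3 to 97.5 CPM in AL mice, with 25.7 CPM as the next highest value. The LS mice had 16.8, 16.4, 19.2 and 19.1 CPM and the Ctrl mice 11.7 to 21.3 CPM with a median of 16.4. AL9 alone stood far above the rest and the other AL mice overlapped with both other groups. Without AL9 the log2 fold change was 0.27 (FDR = 0.138). AL9 also held 694 CPM of the collagen gene Col1a1, against 25.6 to 83.8 CPM in the other 19 mice. The call of Adamts2 was lost in 22 of 31 alternative fits. Among them were those without AL1, AL2, AL4, AL6 or AL7, without any 1 of the LS mice, or without Ctrl2, Ctrl4, Ctrl5, Ctrl6 or Ctrl7, with an FDR from 0.052 (without AL7) to 0.0946 (without Ctrl5).

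Other ADAMTSs known from heart were not called. Adamts1, which cleaves versican and aggrecan, had a log2 fold change of -0.10 (FDR = 0.803), with a mean of 47.1 CPM and an SD of 14.5 in the 7 Ctrl mice and of 42.4 CPM and 21.2 in the 9 AL mice. Adamts4 had 0.18 (FDR = 0.875) and Adamts5, the other main aggrecanase, 0.05 (FDR = 0.855). The lowest value of the family was that of Adamts19, a gene known from heart valves, at -0.68 (FDR = 0.349). It was called lower in the first run alone, with a log2 fold change of -1.45 (FDR = 0.0414), and in the fit of both runs without AL9, with -1.33 (FDR = 0.0344), and AL9 held the highest level of all mice at 3.27 CPM. Beside it, Adam12, an ADAM studied in fibrosis and named after its values were seen, at -1.09 (FDR = 0.00488), and Adamts14, a procollagen N-proteinase, at -0.78 (FDR = 0.0383) were called lower in the first run.

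**Figure D2:**
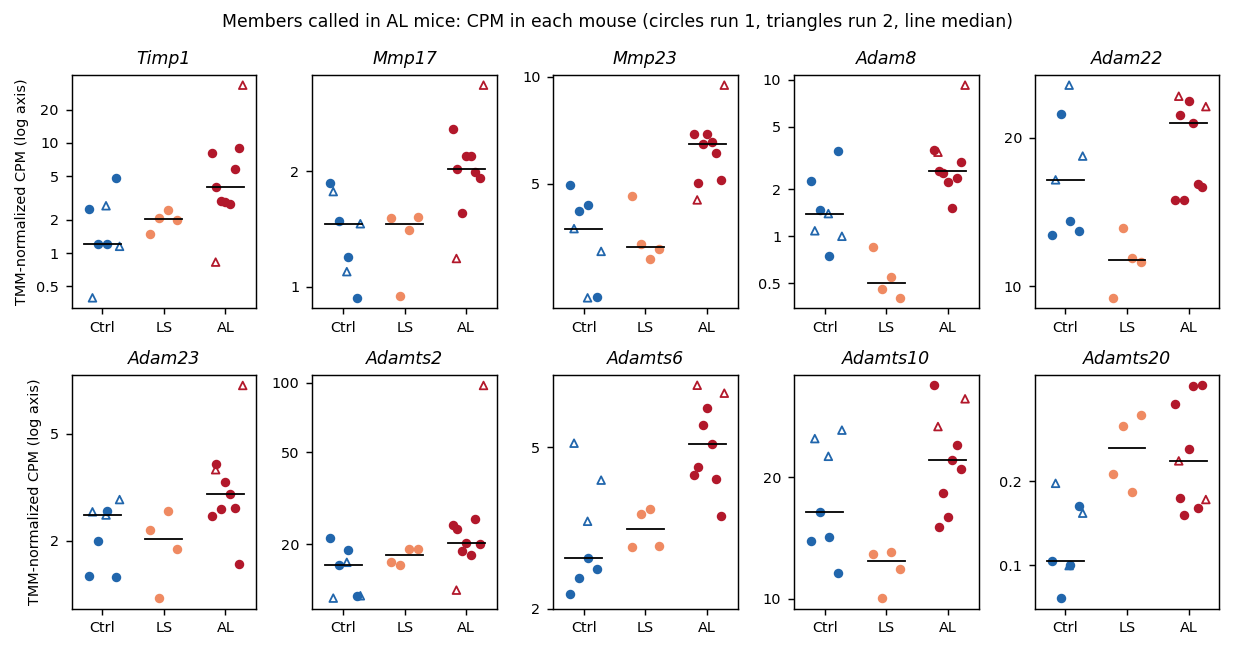
TMM-normalised CPM (log axis) of the 10 members called in AL against Ctrl or AL against LS, in each Ctrl, LS and AL mouse (1 point per mouse, circles for the first and triangles for the second sequencing run, line at the group median). Timp1 and Adamts2 peak in AL9 at 33.3 and 97.5 CPM, while for Adamts6 and Mmp23 the AL mice of the first run lie above all Ctrl mice of that run.

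AL mice were next compared with LS mice, which carry the same light chain alleles but have no amyloid and were not induced. This comparison shares the AL mice with the one above. Of the 49 members 4 were called higher in AL and none lower, where 5.86% of all genes were called higher and 3.03% lower, and the median log2 fold change was 0.21. Without AL9 7 members were called, the same 4 among them, where 1436 of 14413 genes were. The LS mice were all in the first run. Within that run 7 of the 49 members had all AL mice above all LS mice, as had 8.94% of all genes, and the 7 were Adam8, Adam15, Adam22, Adamts10, Mmp17, Mmp23 and Timp1. Tested in the first run alone, 7 members were called higher, where 7.94% of all genes were, and 2 lower, where 3.53% were.

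Adam8, a sheddase of neutrophils, macrophages and other leukocytes, showed the largest fold of the members. It ranged from 1.51 over 2.63 to 9.21 CPM in AL mice and stood at 0.850, 0.463, 0.550 and 0.404 CPM in LS mice, so that every AL mouse was above every LS mouse. The Ctrl mice, with 0.748 over 1.39 to 3.50 CPM, overlapped with both. The log2 fold change was 2.40 ± 0.48 (SE; FDR = 0.00199) against LS, 2.17 in the first run alone (FDR = 0.0013), and 0.94 against Ctrl (FDR = 0.0535), or 0.61 without AL9 (FDR = 0.14). Of the LS mice, 3 of 4 lay below the lowest Ctrl mouse, with a log2 fold change of -1.46 against Ctrl that did not pass (FDR = 0.744). The 7 macrophage marker genes summed to 174 over 395 to 676 CPM in AL, 312 to 367 CPM in LS and 213 over 277 to 421 CPM in Ctrl mice, and 1 of them was called higher in AL than in Ctrl mice. Against LS 5 of the 7 had a positive log2 fold change and none was called. Lyz2 gave the largest part of the sum, at 178.6 to 359 CPM in first-run AL and 138.9 to 175.8 CPM in LS mice. In the same mice Csf1r was at 28.6 to 43.5 against 43.2 to 52.1 CPM. Mrc1 was at 30.9 to 42.8 against 41.4 to 56.5 CPM, so these 2 leaned the other way. The 6 neutrophil marker genes summed to 2.53 to 32.1 CPM in AL, 2.89 to 6.96 CPM in LS and 1.77 to 20.9 CPM in Ctrl mice, and none was called. The part of these cells in the level of Adam8 was not tested.

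Adamts10, which acts on fibrillin microfibrils, ranged from 15.03 over 22.01 to 33.7 CPM in AL mice and stood at 12.9, 10.03, 13.0 and 11.9 CPM in LS mice. Every AL mouse was above every LS mouse. The Ctrl mice ranged from 11.6 to 26.1 CPM, and the 3 of the second run were the highest of them at 22.5 to 26.1 CPM. The log2 fold change was 0.80 ± 0.17 against LS (FDR = 0.0033) and 0.50 against Ctrl (FDR = 0.0173), under the fold limit. In the first run alone both comparisons were called, at 0.85 (FDR = 0.0039) and 0.61 (FDR = 0.0245).

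Adam22, the relative of Adam23 without a full zinc site, ranged from 14.9 over 21.4 to 24.3 CPM in AL mice and stood at 9.47, 13.1, 11.4 and 11.2 CPM in LS mice. Again no AL mouse was as low as any LS mouse, while the Ctrl mice spread from 12.7 to 25.6 CPM over both. The log2 fold change was 0.71 ± 0.17 against LS (FDR = 0.00684) and 0.26 against Ctrl (FDR = 0.196). With the liver genes as a covariate the call against LS was lost (0.54, FDR = 0.0536). In the main fit Mmp23 was the only member called in both comparisons, with 0.84 ± 0.21 against LS (FDR = 0.00903) beside 0.79 against Ctrl. LS1, at 4.63 CPM, was the highest of the LS mice and lay within the AL range only through AL8.

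Under the fold limit, Adamts6 had a log2 fold change of 0.57 against LS (FDR = 0.0127) and Adam15 0.53 (FDR = 0.0178). Adamts6 was called against LS in 14 of 30 alternative fits, those with DESeq2 and without AL9 among them. Adam15 ranged from 40.7 to 79.9 CPM in AL and from 32.96 to 39.1 CPM in LS mice, without overlap, and from 36.4 to 47.97 CPM in Ctrl mice. The first run alone added Adamts6 (0.60, FDR = 0.00883), Mmp17 (0.63, FDR = 0.0266) and Timp1 (1.34, FDR = 0.0283) as higher and Adamts14 (-1.09, FDR = 0.00577) and Adamts19 (-1.69, FDR = 0.0171) as lower. Without AL9 the last 2 were called lower in the fit of both runs as well, with -0.99 (FDR = 0.0123) for Adamts14 and -1.64 (FDR = 0.0149) for Adamts19. Adamts14 was at 2.55, 1.56, 1.53 and 1.91 CPM in LS mice against a median of 1.06 CPM in AL mice.

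LS mice were compared with Ctrl mice to ask whether the light chain without amyloid goes with a change. None of the 49 members was called (edgeR), as 0.0207% of all genes were, and 4 had an unadjusted p under 0.05, as had 5.95% of all genes. DESeq2 called none of them either. The 4 were Adam19 with a log2 fold change of 0.90 (FDR = 0.589), Adam22 with -0.45 (FDR = 0.798), Adam8 with -1.46 (FDR = 0.744) and Adamts20 with 1.11 (FDR = 0.784). The median of the 49 was 0.09, with medians of -0.13 for Adam, 0.25 for Adamts, 0.14 for Mmp and -0.07 for Timp members. The Ctrl mice are shared with the comparison of AL and Ctrl mice.

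The AL and Ctrl groups were present in both runs, so the difference between them could be compared between runs. In 4 of the 49 members the log2 fold change differed between the runs (FDR under 0.05 for the interaction of group and run), where 1.49% of all genes did. All 4 were more positive in the second run. Adamts4, an aggrecanase induced by inflammatory signals, had a log2 fold change of -1.08 in the first and 4.07 in the second run (FDR = 0.018). Mmp9 had 0.19 and 3.89 (FDR = 0.0344), and Adamts14 had -0.78 and 1.66 (FDR = 0.0368). For Mmp8, the neutrophil collagenase, the fold change was -1.09 in the first run (FDR of the difference = 0.0145). In the second run the 3 Ctrl mice had no count of Mmp8, and the mean of the 2 AL mice, 2.09 CPM, was at least 23.1-fold higher than the floor of 3 counts over that Ctrl group, 0.0903 CPM. The second run held only 2 AL mice and they were unlike each other, so these differences describe those mice. Without AL9 only Mmp8 remained, and without AL8 17 members differed. Leaving out Ctrl5 left 1 and leaving out Ctrl6 left 2.

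**Figure D3:**
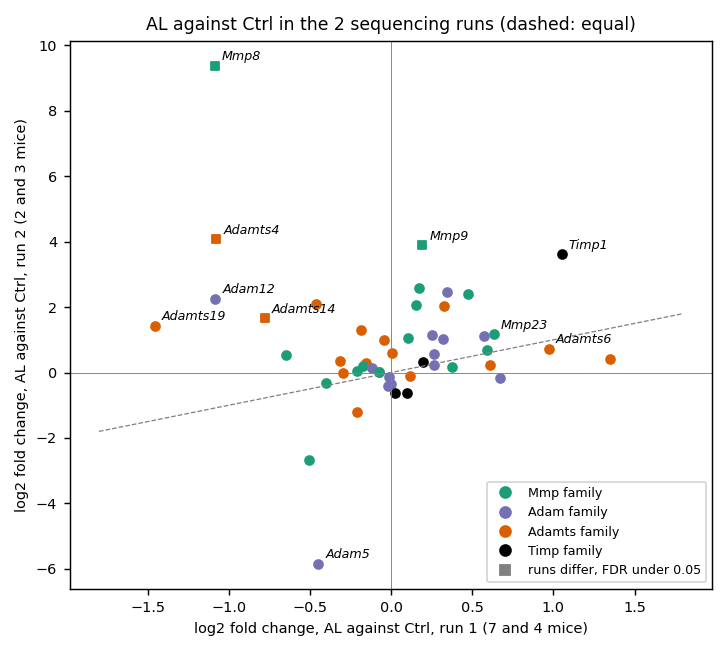
log2 fold change of AL against Ctrl in the first run (x axis, 7 and 4 mice) and in the second run (y axis, 2 and 3 mice), 1 point per tested member, by family, with squares for the 4 members whose fold change differed between the runs and a dashed line where both would be equal. Adamts6 lies at 0.97 and 0.78, near the line, whereas Mmp8, Adamts4, Mmp9 and Adamts14 lie far above it.

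AL9 had the highest level of all 20 mice in 27 of the 49 members, where it did so in 19.9% of all genes. By family these were 9 of 15 Mmp, 6 of 14 Adam, 10 of 16 Adamts and 2 of 4 Timp members. Against the median of the 7 AL mice of the first run, AL9 held 16.9 times the level of Adamts4, 14.9 times that of Adam12 and 10.2 times that of Mmp9. For Timp1 the ratio was 8.32, for Mmp8 8.04, for Adamts19 7.93 and for Adamts14 6.94. The TIMPs parted in this mouse. Timp3 and Timp4, the matrix-bound and the cardiac TIMP, stood at 0.419 and 0.434 of that median and were the lowest of the 20 mice, together with Adam5 and Mmp16. AL8 showed another picture, with the highest level in 3 members (Adamts6, Mmp28 and Mmp8) and the lowest in 9. Its 6 neutrophil marker genes summed to 32.1 CPM, the highest of the mice, followed by AL9 with 21.3 and Ctrl4 with 20.9, against 1.77 to 14.3 CPM in the others. Mmp8 was at 2.37 CPM in AL8, 1.81 in AL9 and 1.04 in Ctrl4, the same 3 mice. The part of fibroblasts and neutrophils in the levels of these 2 mice was not tested.

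**Figure D4:**
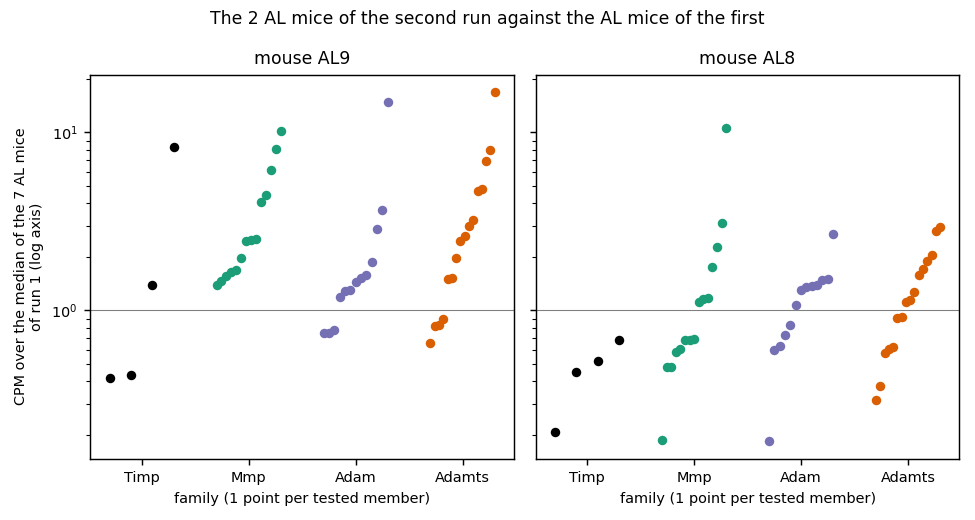
Level of each tested member in AL9 (left) and AL8 (right) over the median of the 7 AL mice of the first run (log axis), by family, with members sorted within a family and members at 0 not drawn. In AL9 most Mmp and Adamts points lie above 1, up to 16.9, and Timp3 and Timp4 lie at 0.419 and 0.434.

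Summed over all members of a family, levels per kilobase set the proteases against their inhibitors. These sums describe the RNA, not the activity of the proteins, and no test was run on them. The Timp sum ranged from 51.6 (AL8) over 104.4 to 132.8 CPM per kb in AL mice, was at 99.2, 72.9, 67.6 and 105 CPM per kb in LS mice and ranged from 69.7 over 80.3 to 115.8 CPM per kb in Ctrl mice. The groups overlapped. The Mmp sum was 110.4 CPM per kb in AL9 and 32.3 to 44.7 in all other mice, and the Adamts sum was 48.8 in AL9 and 14.97 to 26.2 in all others. AL9 therefore stood far above all other mice in both families. Of the other AL mice, AL1 and AL6 were also above the highest LS or Ctrl mouse in the Mmp sum (44.72 and 43.9 against 39.44), and in the Adamts sum AL1 was above and AL3, AL4 and AL5 were below all LS and Ctrl mice.

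The ratio of the Timp sum to the sum of the 3 protease families had a median of 1.00 in AL, 0.8293 in LS and 0.797 in Ctrl mice. In the first run the 4 Ctrl mice averaged 0.940 with an SD of 0.20, the 7 AL mice 0.985 with an SD of 0.091 and the 4 LS mice 0.821 with an SD of 0.15. The means of AL and Ctrl mice differed by less than the SD of either group. Those of AL and LS mice differed by more than the SD of either group. The ranges of these 2 groups overlapped, at 0.801 to 1.09 in AL and 0.654 to 0.972 in LS mice. In the second run the 2 AL mice had 0.535 (AL8) and 0.489 (AL9), and the 3 Ctrl mice 0.730 to 0.797. The low ratio came about differently in the 2 mice, through a Timp sum of 51.6 CPM per kb in AL8 and through a protease sum of 216.2 CPM per kb in AL9, against 96.5 in AL8. The make-up of the inhibitors shifted in AL9, where Timp1 gave 35.5% of the Timp sum against 0.609 to 9.62% in the other mice, and Timp3 gave 23.0% against 48.5 to 65.4%.

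**Figure D5:**
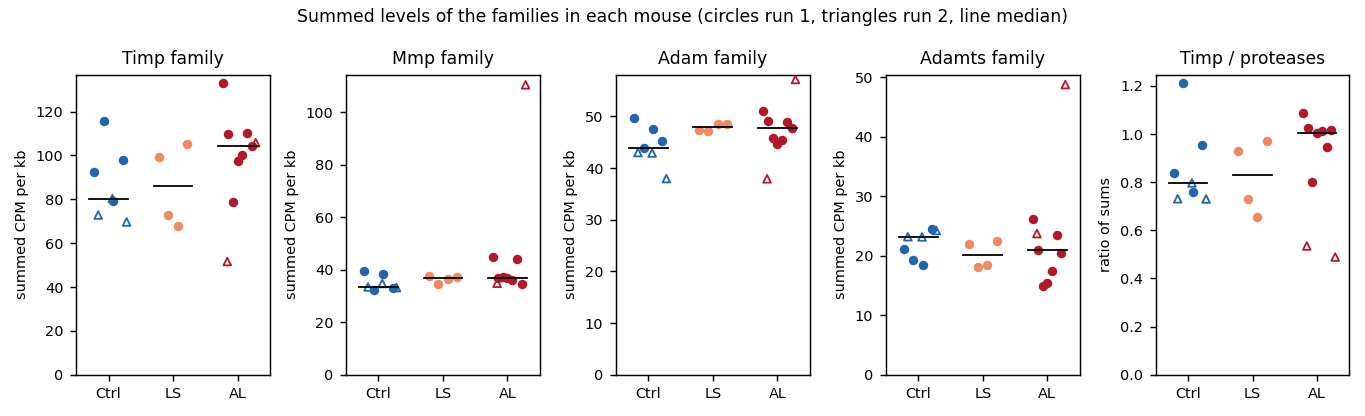
Summed level per kilobase (CPM per kb) of the Timp, Mmp, Adam and Adamts members and the ratio of the Timp sum to the summed proteases, in each mouse (circles for the first run, triangles for the second, line at the group median). AL9 stands apart at 110.4 in the Mmp and 48.8 in the Adamts panel, and AL8 and AL9 have the lowest ratios, 0.535 and 0.489.

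Genes that act with these proteases but are not members were looked at as 4 lists of 30 genes, 28 of which were tested. Of the 28, 1 was called higher and 1 lower against Ctrl, where 4.1% and 3.71% of all genes were. Against LS 2 were called higher and none lower, where 5.86% and 3.03% of all genes were. On the list of inhibitors other than TIMPs 5 genes were tested, and the proteoglycan gene Spock2 (testican-2) was called higher in AL mice. The log2 fold change was 0.69 against Ctrl (FDR = 0.0166) and 1.095 against LS (FDR = 0.00389). The list took in the testican family as a whole, and whether testican-2 inhibits these proteases was not tested. Reck, a membrane-anchored inhibitor of MMPs, had -0.13 (FDR = 0.556) against Ctrl. Of 7 activators and partners, Pcsk6, a proprotein convertase abundant in heart, was called lower against Ctrl, at -0.68 (FDR = 0.0212), with a mean of 52.1 against 70.7 CPM. In the first run alone the log2 fold change of Pcsk6 was -0.30. Of 9 escorts that carry ADAM10 or ADAM17 to the cell surface, the tetraspanin gene Tspan17 was called higher against LS, at 0.60 (FDR = 0.00549). It stayed under the fold limit against Ctrl, at 0.45 (FDR = 0.0102). None of the 7 ADAMTS-like proteins, which resemble ADAMTSs but have no protease domain, was called. In LS against Ctrl none of the 28 was called.

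The promoters of the members were searched for short motifs in the RefSeq windows of GRCm38.p6, each 300 bases long around the start of the gene, on both strands, and 49 of the 79 members had 53 windows. The letters TGANTCA, as bound by AP-1, were present in 22.6% of these windows and in 7.81% of all 32851 windows. Among the 30 tested members with a window the share was 9.09%, near that of all genes. The letters AGGAAG, as bound by ETS factors, were present in 36.4% of the windows of tested members and 35.4% of all, and GGGCGG, a GC box, in 60.6% and 35.7%. The TATA box letters TATAAA were present in 12.1% and 13.6%. The Timp1 window (chrX:20869916-20870215, plus strand) held AGGAAG at 3 positions, starting 175 and 99 bases before and 40 bases after the start, and no TGANTCA. The Mmp3 window (chr9:7445572-7445871, plus strand) held TGANTCA 46 bases before the start. A match describes the letters in the window only.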

How the data were processed

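RNA from the heart apex of 20 mice had been sequenced in 2 runs with a stranded poly(A) kit. The authors ran nf-core/rnaseq with STAR on GRCm38 and deposited estimated counts from Salmon, merged per gene and counted by strand; the versions of STAR and Salmon are not given in the sources used here. Counts, 14.2% of which were not whole, were rounded. Genes at a CPM worth 10 counts in a library of median size were kept if as many mice as the smallest group holds reached it (14477). They were fitted with edgeR 4.0.16 in R 4.3.3 (TMM scaling, quasi-likelihood test, terms for group and run, 20 mice in 1 fit) and adjusted by Benjamini-Hochberg. Differences between runs were tested with a group by run interaction. Fold changes are fitted log2 values and SEs are derived from the F statistic. Levels per kb use exon lengths of GENCODE M21, whose coding sequences were translated to find the zinc site (Biopython 1.88). Sums over families and markers were not tested. The members and lists were chosen with earlier results of these data known. The text names the TIMPs, all called members, the 3 most abundant of each protease family, 8 members well known in heart and the highest and lowest of each family. The procedure was tested on simulated data. The alternatives were other scaling and filters, DESeq2 1.42.0, ComBat-seq (sva 3.50.0), 1 run alone, no run term, a replicate block, Xist or liver genes as covariates, and each mouse left out. Floors cover counting error only. Replicates were separate mice. Exons of 14 tested members, Timp3, Timp4, Adam8 and Adam15 among them, overlap a gene on the opposite strand, which strand-aware counting separates, and those of Adam1a also overlap a gene on the same strand.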

Additional observations from a re-analysis of the deposited data

Results flagged for a closer look

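Levels of single mice far from the rest of their group, by Dixon's criterion at 95%, were found in 14 of 90 groups of named members and mice. Of the 14, 12 were in AL9. Some members were named for values that AL9 moved, so the rate of about 1 in 20 by chance does not apply to these groups. AL9 was the highest of the 20 mice in 19.9% of all genes. In the TIMPs, AL9 had 33.3 CPM of Timp1. In the MMPs it had 123.2 CPM of Mmp2, 48.02 CPM of Mmp3, 18.4 CPM of Mmp9, 49.7 CPM of Mmp14 and 9.47 CPM of Mmp23. In the ADAMs it had 9.21 CPM of Adam8 and 7.57 CPM of Adam23. In the ADAMTSs it had 97.5 CPM of Adamts2, 8.86 CPM of Adamts4, 5.59 CPM of Adamts14 and 3.27 CPM of Adamts19. The other 2 were 110.9 CPM of Timp2 in LS4 and 2.36 CPM of Adamts14 in Ctrl1. All 12 values of AL9 were above the group, and the same mouse had the highest sum of fibroblast markers, 4443 CPM. That sum came mostly from collagen genes, while Dcn, Lum, Pdgfra and Tcf21 lay within the range of the other mice. The part of fibroblasts in these values was not tested.

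The difference between AL and Ctrl mice differed between the 2 runs, by the interaction of group and run (edgeR), for Mmp8 (FDR = 0.0145), Adamts4 (FDR = 0.018), Mmp9 (FDR = 0.0344) and Adamts14 (FDR = 0.0368). All 4 were more positive in the second run.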

How the results depend on the processing

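The members called in AL against Ctrl numbered 7, where 4.1% of all genes were called higher and 3.71% lower. They numbered 11 with DESeq2 (1261 of all 14477 genes), 3 with ComBat-seq (765) and 3 with a replicate block (851). In the second run alone 0 of 39 members were called, where 16 of 12496 genes were. With 1 mouse left out they numbered 4 to 9, where 922 (without Ctrl4) to 1336 (without AL8) genes were called. The 4 called in AL against LS became 2 with ComBat-seq (648 of 14477 genes) and 9 in the first run alone (1639 of 14288). With 1 mouse left out they numbered 4 to 7, where 959 (without LS2) to 1455 (without AL8) genes were called. LS against Ctrl gave 0 under each alternative run, where 2 (no run term) to 19 (DESeq2) of all genes were called. The 4 members that differed between runs became 1 with at least 10 counts in every mouse, 8 with the replicate block and 10 with DESeq2, and 1 to 17 with 1 mouse left out. No direction of a call was reversed. Adamts6 and Mmp23 kept their calls against Ctrl in all alternatives but the second run alone. Against LS, ComBat-seq ended the calls of Mmp23 (0.75, FDR = 0.067) and Adam22 (0.66, FDR = 0.0779).

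The replicate number is a name here. The deviations of mice with the same number correlated between -0.154 and 0.231 over 15 pairs, and 2 of 4 LS mice correlated best with the Ctrl mouse of their number, so the numbers were not taken as pairs. The numbers 8 and 9 occur in AL mice only, so AL8 and AL9 add nothing to the group difference in the fit with the block. Calls lost there are therefore not separate from those lost without these mice. With the block, Adamts6 and Mmp23 were called higher and Adam12 lower in AL against Ctrl.

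The LS mice were all in the first run, so that nothing about them could be compared between runs. The second run had 2 AL and 3 Ctrl mice at lower depth, and rare members such as Adamts20 had few counts there. With Xist as a covariate 5 members were called against Ctrl, and with the liver genes 10, where 1027 and 1088 of 14477 genes were.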

Other observations

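Among the ADAMTS-like genes, which were tested as partners of the proteases, none was called, but some passed the FDR limit below the fold limit. Adamtsl5, which encodes a microfibril-binding protein, had a log2 fold change of 0.49 in AL against Ctrl mice (FDR = 0.00563, edgeR) and of 0.55 against LS mice (FDR = 0.0101), with mean levels of 71.7 CPM in AL, 42.9 CPM in LS and 55.5 CPM in Ctrl mice. Adamtsl3 had -0.47 against Ctrl (FDR = 0.017). Adamtsl2, which binds fibrillin and LTBP1, had 0.92 against Ctrl (FDR = 0.111) and 1.00 against LS (FDR = 0.166), with mean levels of 23.7 CPM in AL, 13.5 CPM in LS and 12.5 CPM in Ctrl mice. These genes were named after their values were seen.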
